A study of Mus musculus with 6 samples.

Results

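The collagen genes of the mouse embryonic heart were compared between control hearts and hearts in which the zinc finger transcription factor gene Casz1 was conditionally mutated. Collagen genes were taken as the tested entries of the deposited expression table whose RefSeq identifiers gave exactly 1 mouse symbol of the form Col, number, a, number. This gave 31 genes out of 23290 entries, of which 15387 were tested. The RNA came from individual hearts at E10.5, with 3 control and 3 mutant samples of C57BL/6 background. Control embryos had the genotype Nkx2-5+/+,Casz1f/+, that is 1 floxed Casz1 allele and no Cre recombinase. Mutant embryos had the genotype Nkx2-5Cre/+,Casz1f/f, so that Cre from the Nkx2-5 locus acts on both floxed Casz1 alleles in cells with Nkx2-5 expression and in their descendants. All embryos therefore carried at least 1 floxed Casz1 allele, and the mutants alone carried Cre, at 1 of their Nkx2-5 alleles. Heart cells outside the Nkx2-5 lineage keep Casz1 and were sequenced together with the rest. The table gives 1 FPKM value per genotype, a fragment count scaled by transcript length and library size. The spread between hearts and the sequencing depth of each sample are unknown here. Every FPKM, log2 fold change, p and q below was taken from the authors' deposited table, and the standard error (SE) and 95% interval of a fold change are those implied by its test statistic. A gene is said to have changed when its q, the p adjusted over all tested entries, was under 0.05.

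Collagens are extracellular matrix proteins in which 3 chains wind into a triple helix, and each turn needs glycine, the smallest amino acid, at 1 position in 3. Fibrillar collagens form the cable-like fibrils of mesenchyme, and type IV collagen forms the sheet that underlies endothelium, epicardium and muscle cells as basement membrane. FACIT collagens (fibril-associated collagens with interrupted triple helices) sit on the surface of fibrils or at tissue borders. At this stage of heart development the wall is thin, and mesenchyme is filling the endocardial cushions, the later valves, with matrix.

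The repeat that all 31 genes share can be read in their coding sequence, since every glycine codon starts with GG. The stretches below are the first 180 bases of the longest uninterrupted repeat in the only gene that changed (Col22a1), the 2 most highly expressed genes (Col18a1 and Col4a1) and the most highly expressed fibrillar gene (Col2a1), taken from the GENCODE M21 transcript with the longest coding part. Capitals mark the glycine codons of the repeat.
Col22a1: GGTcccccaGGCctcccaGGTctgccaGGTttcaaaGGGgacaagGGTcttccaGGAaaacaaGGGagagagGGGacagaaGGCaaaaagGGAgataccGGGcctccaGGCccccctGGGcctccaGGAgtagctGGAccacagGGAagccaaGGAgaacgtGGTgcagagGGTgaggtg
Col18a1: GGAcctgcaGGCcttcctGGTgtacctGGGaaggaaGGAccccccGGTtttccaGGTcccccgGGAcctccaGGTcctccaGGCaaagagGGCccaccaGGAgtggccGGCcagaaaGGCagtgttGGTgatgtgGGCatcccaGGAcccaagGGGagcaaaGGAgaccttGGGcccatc
Col4a1: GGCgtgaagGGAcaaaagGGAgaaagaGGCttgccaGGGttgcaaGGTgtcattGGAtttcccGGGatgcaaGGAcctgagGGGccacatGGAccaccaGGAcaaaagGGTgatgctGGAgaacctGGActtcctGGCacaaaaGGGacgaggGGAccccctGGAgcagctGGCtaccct
Col2a1: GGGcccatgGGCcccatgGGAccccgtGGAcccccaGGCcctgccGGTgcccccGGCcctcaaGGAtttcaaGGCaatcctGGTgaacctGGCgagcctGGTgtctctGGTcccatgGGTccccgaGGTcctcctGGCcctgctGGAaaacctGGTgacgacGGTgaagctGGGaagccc

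The Col22a1 stretch covers codons 1107 to 1166, that of Col18a1 codons 953 to 1012, that of Col4a1 codons 43 to 102 and that of Col2a1 codons 201 to 260. A run of at least 10 such triplets was found in 31 of 31 collagen genes and in 98 (0.455%) of the 21518 coding genes searched. Of those 98 genes, 54 had no symbol of the collagen form, so the run is not particular to the family. No expression value entered this search. The runs differed in length and number, also within a class. Fibrillar genes other than Col27a1 held 1 run of 338 to 344 triplets and a short run before it. Col4a1 had 18 runs with at most 40 triplets in the longest. Col22a1 had 9 runs, the longest of 113 triplets, and Col18a1 and Col15a1 had 7 and 4 runs that made up 21.0% and 15.8% of their codons.

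**Figure D1:**
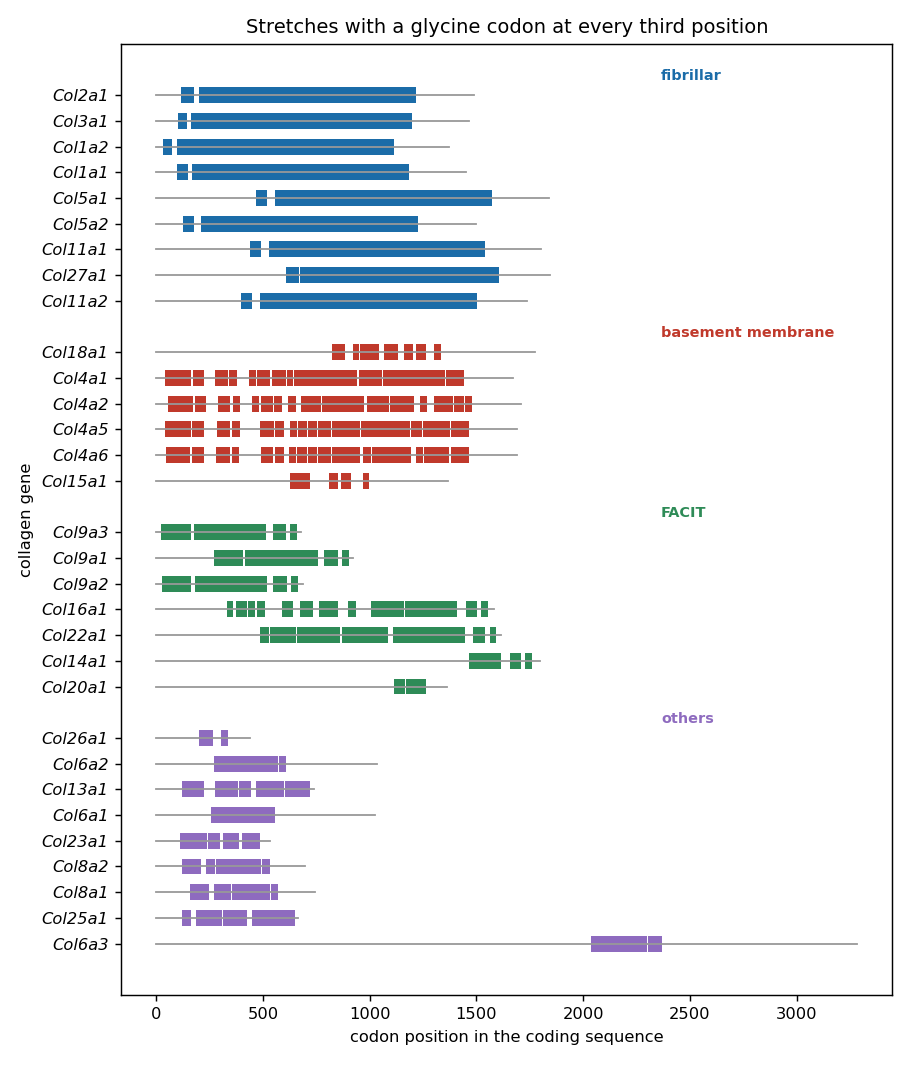
Position of glycine repeats in the coding sequence of each collagen gene. The x axis is the codon number, each grey line is 1 coding sequence, and each coloured block is a run of at least 10 triplets that start with a glycine codon. Fibrillar genes other than Col27a1 show 1 long block of 338 to 344 triplets, while the 4 type IV genes are broken into 17 or 18 blocks.

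Over all tested genes, 65 entries changed, 47 higher and 18 lower in the mutants. In the authors' deposited table Casz1 itself stood at 6.61 FPKM in the controls and 4.68 FPKM in the mutants (log2 -0.50, SE 0.306, q = 1.00), a value that covers the whole gene and not the floxed part alone. Nkx2-5, whose locus carries Cre, read 143.0 and 82.9 FPKM (log2 -0.79, SE 0.295, q = 0.536). Of the defining markers of heart muscle 0 of 6 changed, with levels from Ryr2 (14.2 and 12.4 FPKM) to Myl7 (5080.5 and 7496 FPKM, log2 0.56). Troponin Tnnt2 read 1975 and 1974 FPKM, and Nppa read 1755 and 888 FPKM (log2 -0.98, unadjusted p = 0.0123 and q = 0.746 in the authors' deposited Cuffdiff table). Of markers of other cells, 6 of 7 foregut and epithelial genes and 2 of 5 smooth muscle genes changed, all of them higher in the mutants.

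Of the 31 collagen genes, 1 changed. Col22a1 rose and 0 fell, so that 3.23% of the collagen genes changed, against a background of 0.422% of tested entries called in either direction and 0.305% called higher. An unadjusted p under 0.05 was reached by 2 collagen genes, Col22a1 and Col15a1, against 3.17% of all tested entries. Both were higher in the mutants, as were 1.99% of all tested entries at that p. The median log2 fold change of the collagen genes was -0.01, and that of all tested entries was -0.02. Of the 31 genes, 15 lay above 0 and 16 below. For 17 of them the 95% interval lay within a 2-fold change in either direction, and for the other 14 at least 1 bound lay beyond it. In bulk tissue, fewer cells of a type and less RNA per cell cannot be told apart.

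The summed level of collagen transcripts was nearly equal in the 2 genotypes, at 686 FPKM in the controls and 685 FPKM in the mutants. The 5 most abundant genes, Col18a1, Col4a1, Col2a1, Col3a1 and Col4a2, held 67.7% of that sum in both genotypes. Basement membrane genes made up 51.4% of the sum in control and 45.9% in mutant hearts, fibrillar genes 37.1% and 42.8%, FACIT genes 3.07% and 3.36%, and the others 8.41% and 7.96%. These shares are sums of pooled values and carry no test. Of the fibrillar difference of 38.8 FPKM, Col2a1 held 33.4 FPKM, and the other fibrillar genes summed to 186 and 192 FPKM.

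**Figure D2:**
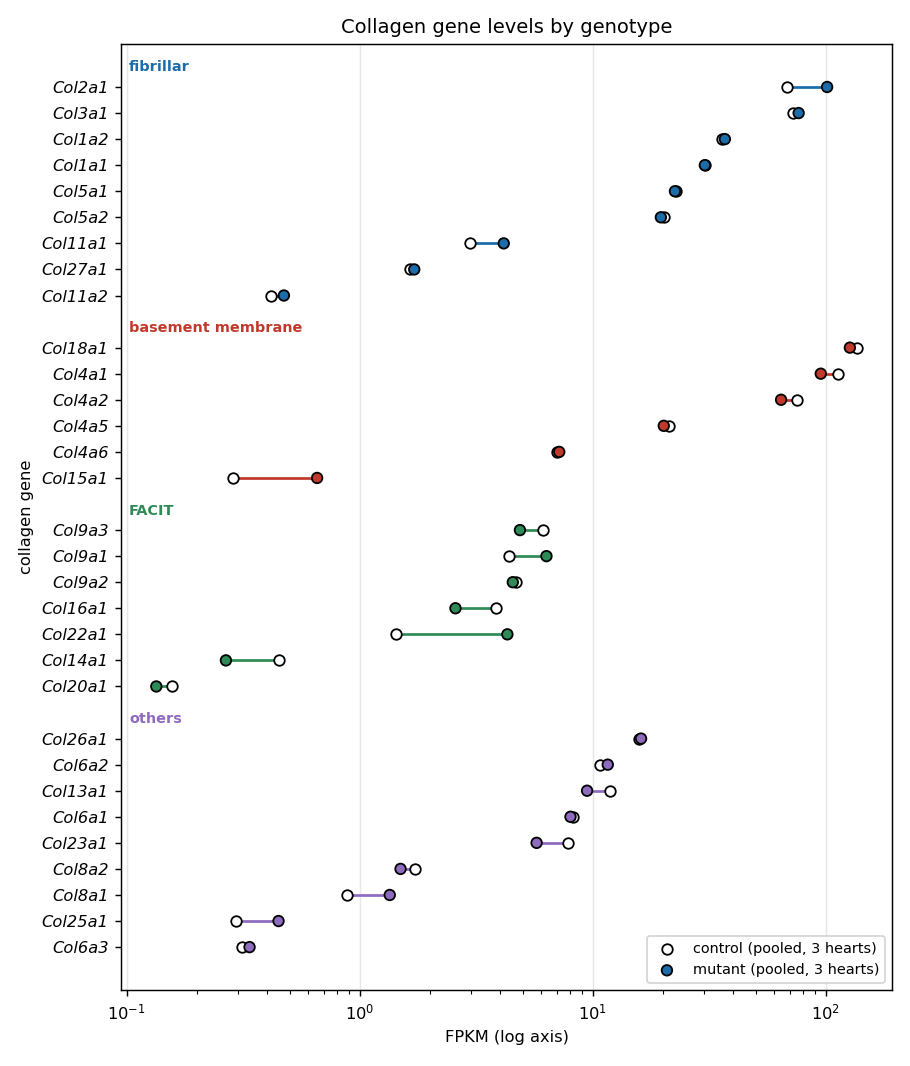
FPKM of each collagen gene on a log axis, 1 pooled value per genotype from 3 hearts each, with the control as an open circle and the mutant as a filled circle joined by a line. Levels span from 0.134 FPKM (Col20a1, mutant) to 136 FPKM (Col18a1, control), and the longest joining lines belong to Col22a1 and Col15a1.

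Col22a1 encodes a FACIT collagen known from tissue junctions such as that between muscle and tendon. In the authors' deposited table it read 1.43 FPKM in the control group and 4.30 FPKM in the mutant group, so the pooled mutant value was the higher one. That is a 3.00-fold rise (log2 1.58, SE 0.327, 95% interval 0.94 to 2.22, q = 0.000699), and by p it ranked 28 among the 15387 tested entries. The entry lies on chromosome 15 from 71798476 to 72034227 in mm10 and spans exons and introns of the RefSeq gene. The level is low: 34.2% of tested entries had a lower mean FPKM, and in control hearts Col22a1 stood below Col9a1, Col9a2, Col9a3 and Col16a1 of its own class, while in mutant hearts it stood below Col9a1, Col9a2 and Col9a3 only. With a pseudocount of 1 FPKM its log2 fold change was 1.12. The nearest entries on either side, Fam135b and Kcnk9, were listed at 0 FPKM in both genotypes and were not tested. Within 1100 kb, 4 other entries were tested, all on the side of Kcnk9, and 0 changed, with log2 fold changes from -0.03 to 0.09, among them Trappc9, a trafficking complex subunit, at 9.20 and 8.98 FPKM.

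Markers of other cell types moved in the same comparison as Col22a1. Their lists were chosen with earlier results of these data known, so the counts describe the chosen genes only. Over all tested entries 0.305% were called higher. Of the foregut and epithelial list, 7 of 7 genes were above their control value and 6 changed, and their summed level was 3.48 FPKM in the controls and 18.1 FPKM in the mutants. Of the smooth muscle list 2 of 5 changed, Actg2 and Lmod1, both higher. An unadjusted Cuffdiff p under 0.05 with a higher mutant value was reached by 4 of 5, against 1.99% of all tested entries. Myh11 was among them (log2 1.52, q = 0.322). The smooth muscle sum of 471 and 885 FPKM was mostly Tagln, at 333 and 767 FPKM (log2 1.20, q = 0.411), while Cnn1 read 132 and 96.0 FPKM (log2 -0.45, q = 1.00 in the authors' deposited table). Of the skeletal myogenic list 1 of 4 tested genes changed, the embryonic myosin Myh3 at 0.0165 and 0.213 FPKM (log2 3.70). Myf5, listed at 0 in the controls, read 0.102 FPKM in the mutants, and Myog read 0.00534 and 0.416 FPKM. The list's sum of 51.5 and 26.9 FPKM was nearly all the troponin Tnni2, at 51.5 and 26.1 FPKM (log2 -0.98, q = 0.355 in the authors' deposited table). Of the neural crest list 0 of 3 tested genes changed and the sum was 0.623 and 1.26 FPKM. The part of these cells in the rise of Col22a1 was not tested, and with 1 value per genotype it is unknown whether the same hearts were high in both.

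The other FACIT genes did not change, and they went both ways. Type IX collagen decorates fibrils of type II collagen and is built from the products of Col9a1, Col9a2 and Col9a3. Col9a1 read 4.36 and 6.32 FPKM (log2 0.54, SE 0.311, 95% interval -0.07 to 1.15), Col9a2 read 4.69 and 4.54 FPKM (log2 -0.05), and Col9a3 read 6.13 and 4.87 FPKM (log2 -0.33, SE 0.341, 95% interval -1.001 to 0.34), each with q = 1.00 in the authors' deposited table. The ratio of Col9a1 to Col9a3 was 0.711 in control and 1.30 in mutant hearts. Col16a1, which is found near fibrils and basement membranes, read 3.84 and 2.57 FPKM (log2 -0.58, SE 0.323, unadjusted p = 0.0741, q = 1.00 in the authors' deposited Cuffdiff table). Col14a1, a regulator of fibril diameter, read 0.452 and 0.266 FPKM (log2 -0.76, SE 0.491, q = 1.00), and Col20a1 read 0.156 and 0.134 FPKM (log2 -0.22). With a pseudocount of 1 FPKM these log2 fold changes were -0.20 for Col14a1 and -0.03 for Col20a1. The intervals of Col14a1 and Col20a1 reached down to -1.73 and -1.36, so at these levels a 2-fold lower value in the mutants could not be told from no change.

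**Figure D3:**
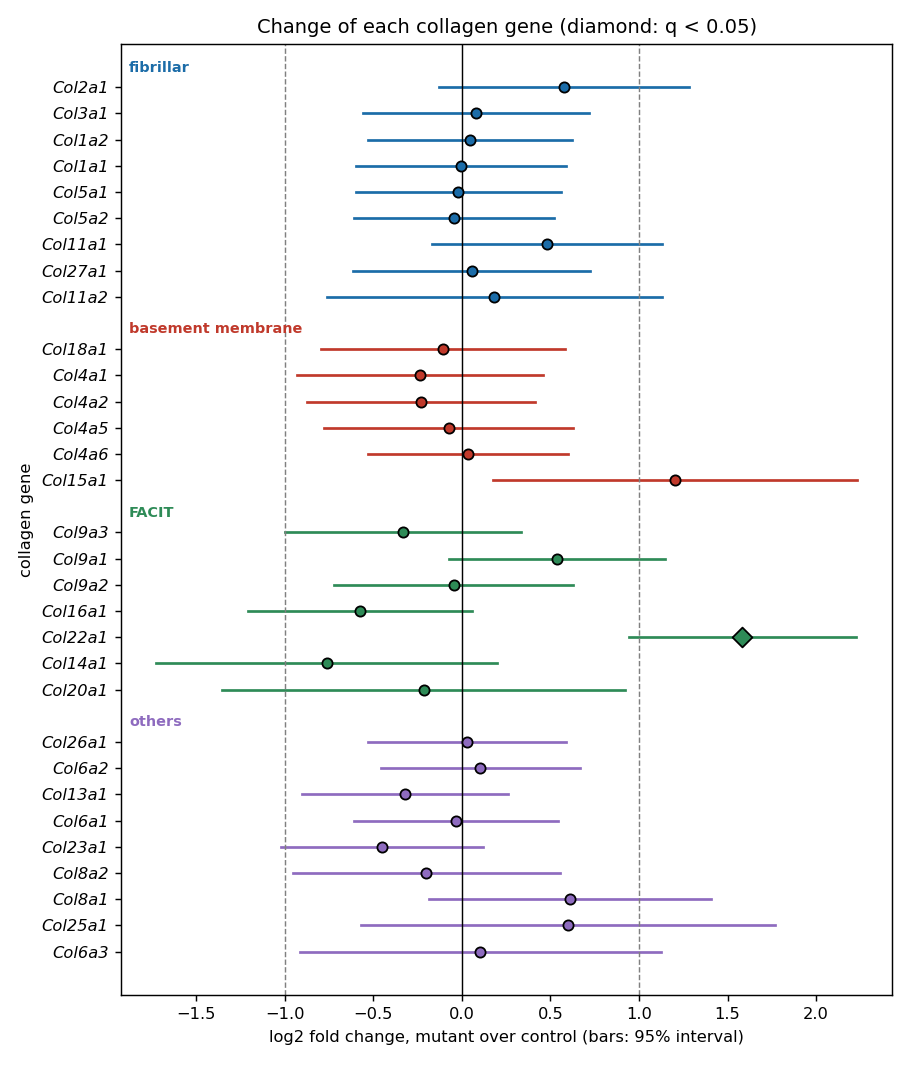
Log2 fold change of each collagen gene, mutant over control, with its 95% interval as a bar and a diamond for q under 0.05. Dashed lines mark a 2-fold change. Col22a1 is the only diamond, the interval of Col15a1 also lies above 0 (0.18 to 2.23), and the bars of the other 29 genes cross 0.

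The 9 fibrillar genes did not change in the authors' deposited table, 0 of 9 had an unadjusted p under 0.05, and their median log2 fold change was 0.05. Col1a1 and Col1a2 encode the chains of type I collagen, the main fibril of connective tissue. Col1a1 read 30.4 and 30.2 FPKM (log2 -0.01, 95% interval -0.60 to 0.59) and Col1a2 read 35.7 and 36.8 FPKM (log2 0.05, 95% interval -0.53 to 0.62), so their ratio was 0.850 and 0.821. Col3a1, the collagen of elastic and vascular tissue, read 72.3 and 76.4 FPKM (log2 0.08, SE 0.327, 95% interval -0.56 to 0.72, q = 1.00). Type V collagen starts fibril assembly, and its genes Col5a1 and Col5a2 read 22.8 and 22.5 FPKM and 20.2 and 19.6 FPKM. Levels of these 5 genes differed between genotypes by at most 1.06-fold (Col3a1), and each interval covered 0. Col27a1 read 1.65 and 1.71 FPKM.

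The largest fibrillar differences were in the genes of cartilage-type fibrils, which the embryonic heart also uses in its cushions. Col2a1, the type II chain, read 67.9 FPKM in the controls and 101 FPKM in the mutants (log2 0.58, SE 0.360, 95% interval -0.13 to 1.28, unadjusted p = 0.109, q = 1.00 in the authors' deposited table). In control hearts it stood below Col3a1 (72.3 FPKM) and in mutant hearts above it (76.4 FPKM). Col11a1, whose chain joins type II fibrils, read 2.97 and 4.15 FPKM (log2 0.48, SE 0.330, 95% interval -0.17 to 1.13, q = 1.00), and its partner Col11a2 read 0.416 and 0.472 FPKM (log2 0.18). None of these differences passed. Of the notochord and cartilage markers 0 of 3 tested genes changed and their summed level was 65.5 and 62.3 FPKM, nearly all of it the matrix link protein Hapln1 (64.7 and 61.5 FPKM). Acan and Matn3, which were tested, read 0.154 and 0.244 FPKM (log2 0.67) and 0.601 and 0.515 FPKM (log2 -0.22). T, at 0.0385 and 0.0658 FPKM, and Noto, listed at 0 in control and at 0.00212 FPKM in mutant hearts, were not tested. Matn1, lower in the mutants at 0.0466 and 0.0210 FPKM, was not tested either. Of the cushion mesenchyme markers 0 of 6 changed, 6 of 6 lay above 0 (median log2 0.19), and their sum was 156 and 166 FPKM. Prrx1 of that list read 1.54 and 3.25 FPKM (log2 1.08, unadjusted p = 0.0279, q = 1.00 in the authors' deposited Cuffdiff table), and its most abundant gene, Vcan, read 95.3 and 95.5 FPKM. The part of these cells in the Col2a1 values was not tested.

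The 6 basement membrane genes did not change either, and their median log2 fold change was -0.09. Col18a1, whose product carries the endostatin fragment at its end, had the highest level of all collagens, at 136 FPKM in the controls and 127 FPKM in the mutants (log2 -0.11, SE 0.353, 95% interval -0.80 to 0.58, q = 1.00 in the authors' deposited table). Its relative Col15a1 was at the other end, at 0.284 and 0.656 FPKM (log2 1.21, SE 0.524, 95% interval 0.18 to 2.23, unadjusted p = 0.0215, q = 0.999 in the authors' deposited Cuffdiff table). Col15a1 had the lowest p after Col22a1, stayed under 1 FPKM in both genotypes, and had a log2 fold change of 0.37 with a pseudocount of 1 FPKM. Col4a1 and Col4a2 encode the chains of the common type IV network. Col4a1 read 112 and 95.1 FPKM (log2 -0.24, SE 0.355, 95% interval -0.93 to 0.46, q = 1.00) and Col4a2 read 75.3 and 64.2 FPKM (log2 -0.23, SE 0.329, 95% interval -0.87 to 0.42, q = 1.00). Both read lower in the mutants by nearly the same factor, and their ratio was 1.49 in control and 1.48 in mutant hearts. Col4a5 and Col4a6, which form a second type IV network, read 21.2 and 20.2 FPKM and 6.999 and 7.17 FPKM. Endothelial markers, from cells that lie on such a membrane, had 0 of 6 genes changed and a sum of 145 and 124 FPKM, and epicardial markers had 0 of 5 changed and a sum of 129 and 120 FPKM. Their part in the type IV values was not tested.

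Col4a1 and Col4a2 lie head to head on chromosome 8 and share a promoter region. Its sequence was chosen for display after their steady ratio was seen, and its part in that ratio was not tested. The windows run from 250 bases before to 50 bases after each RefSeq start, 5′ to 3′ along the gene, in GRCm38.p6. Capitals mark GC boxes (GGGCGG) and CCAAT boxes (CCAAT) on either strand. The first lies on the minus strand at chr8:11312777-11313076 and the other on the plus strand at chr8:11312555-11312854.
Col4a1: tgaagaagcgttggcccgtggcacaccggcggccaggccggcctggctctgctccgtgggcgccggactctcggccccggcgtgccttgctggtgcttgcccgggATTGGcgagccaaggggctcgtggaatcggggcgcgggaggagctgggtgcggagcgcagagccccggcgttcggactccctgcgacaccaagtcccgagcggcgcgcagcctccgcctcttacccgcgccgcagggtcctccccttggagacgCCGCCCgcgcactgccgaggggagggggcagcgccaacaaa
Col4a2: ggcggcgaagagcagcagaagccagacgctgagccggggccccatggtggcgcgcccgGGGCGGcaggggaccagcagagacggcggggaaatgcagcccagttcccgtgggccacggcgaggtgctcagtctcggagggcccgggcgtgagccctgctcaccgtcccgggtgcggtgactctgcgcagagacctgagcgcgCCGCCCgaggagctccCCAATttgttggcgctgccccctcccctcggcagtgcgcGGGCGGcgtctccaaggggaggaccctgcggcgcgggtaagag

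The 2 RefSeq starts used for the windows lie 21 bases apart, at 11312826 for Col4a1 and 11312805 for Col4a2. By these starts the 2 genes overlap. The windows share 78 bases (chr8:11312777-11312854) that hold 1 GC box and 0 CCAAT boxes. The deposited entries of the pair have 2 bases between them, since the entry of Col4a2 begins later, at 11312829. Those of Col4a5 and Col4a6 on chromosome X lie 1342 bases apart, and their ratio was 3.03 in control and 2.81 in mutant hearts. Pairs on different chromosomes varied. The ratio of Col5a1 to Col5a2 was 1.13 in control and 1.15 in mutant hearts, and that of Col9a1 to Col9a3 was 0.711 and 1.30. Promoter windows were found for 24 of the 31 genes, 27 windows in all. The other 7 genes had no window and were not searched for motifs. They were Col22a1, Col2a1, Col1a1, Col5a2, Col9a3, Col14a1 and Col26a1. The GC box was present in 66.7% of these windows against 35.7% of all 32851 windows, the CCAAT box in 33.3% against 37.4%, and the TATA box (TATAAA) in 11.1% against 13.6%. The motif TNAAGTG, the core to which NKX2-5 is known to bind, was in 14.8% against 11.5% of windows, namely those of Col13a1, Col1a2, Col20a1 and Col6a2. All motifs were searched on both strands, and a match describes the letters only.

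The 9 remaining genes, 8 of beaded filaments, short-chain networks and cell membranes and the secreted collagen gene Col26a1, did not change, with a median log2 fold change of 0.03 in the authors' deposited table. Type VI collagen forms beaded filaments around cells, and Col6a1 and Col6a2 read 8.21 and 8.02 FPKM and 10.8 and 11.6 FPKM (log2 -0.03 and 0.10). Col6a3, the gene of their usual partner chain, was far lower, at 0.313 and 0.337 FPKM, so that Col6a2 stood 34.4 times above it in both genotypes. Col26a1 had the highest level of the class, at 15.8 and 16.1 FPKM (log2 0.03, SE 0.285, 95% interval -0.53 to 0.58, q = 1.00), followed by Col6a2 (log2 0.10, SE 0.287, 95% interval -0.46 to 0.67, q = 1.00).

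The transmembrane collagens sit in the cell surface and can be shed. Col13a1 read 11.8 and 9.45 FPKM (log2 -0.32, 95% interval -0.90 to 0.26), Col23a1 read 7.85 and 5.74 FPKM (log2 -0.45, SE 0.291, 95% interval -1.02 to 0.12, q = 1.00), and Col25a1 read 0.296 and 0.448 FPKM (log2 0.60, SE 0.597, 95% interval -0.57 to 1.77, q = 1.00), with a log2 fold change of 0.16 for Col25a1 under a pseudocount of 1 FPKM. Col8a1 and Col8a2 encode the chains of type VIII collagen, a hexagonal network of vessels and cushions. Col8a1 read 0.882 and 1.34 FPKM (log2 0.61, SE 0.406, 95% interval -0.19 to 1.40, q = 1.00; log2 0.32 with a pseudocount of 1 FPKM) and Col8a2 read 1.72 and 1.496 FPKM (log2 -0.20), and the ratio of the former to the latter was 0.513 in control and 0.899 in mutant hearts. No member of this class passed, and the lowest unadjusted p was 0.120, of Col23a1.

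**Figure D4:**
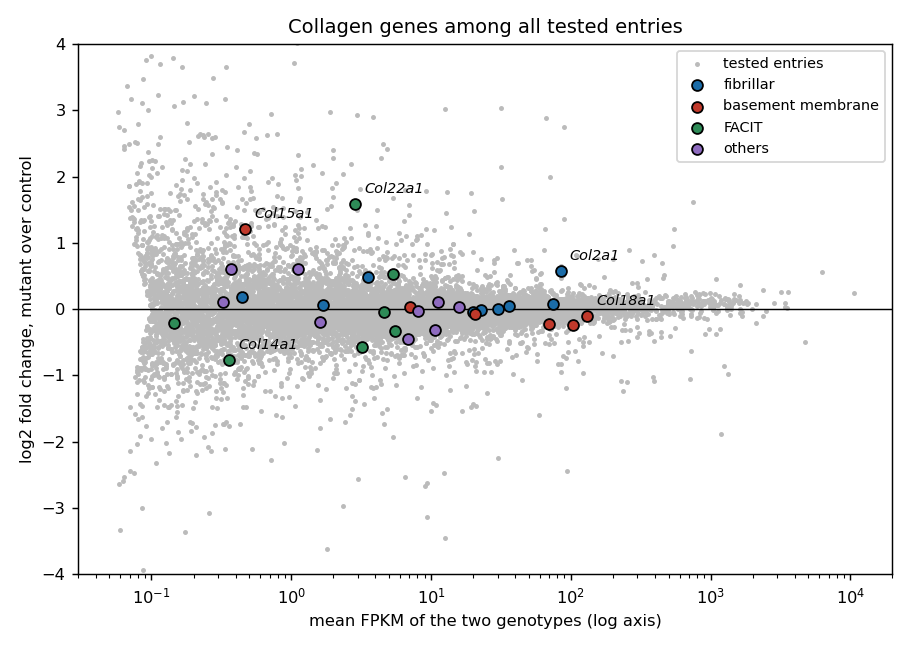
Log2 fold change, mutant over control, against the mean FPKM of the genotypes on a log axis, with tested entries in grey and collagen genes coloured by class. The y axis stops at 4 in both directions and leaves out 25 of the 15301 tested entries with a finite fold. Tested entries without a finite fold are not drawn. Collagens with a mean of at least 10 FPKM lie between -0.32 and 0.58, and Col22a1 stands highest among the collagens at 1.58.

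The SE of the log2 fold change ran from 0.483 to 0.597 in the 6 collagen genes with a mean under 1 FPKM and from 0.285 to 0.406 in the other 25, where Col18a1, the most abundant, had 0.353. Among the 13 collagen genes with a mean of at least 10 FPKM the log2 fold changes ran from -0.32 (Col13a1) to 0.58 (Col2a1). The median absolute log2 fold change of the collagen genes was 0.202, against 0.106 for all tested entries, and in the 25 that reached 1 FPKM in at least 1 genotype it was 0.107 against 0.0865. The smallest change called among all entries was 2.29-fold, so that the differences of Col2a1 (1.49-fold) and Col9a1 (1.45-fold) lay below any change called here.

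Collagen genes at the limit of detection were left untested by the authors. Another 11 collagen entries were marked as too low for a test, in all 4 classes. The highest of them was Col24a1, at 0.0744 and 0.0914 FPKM, and the lowest tested gene was Col20a1, at 0.156 and 0.134 FPKM. Col4a3 and Col4a4, the type IV chains of kidney and inner ear, read 0.0438 and 0.0380 FPKM and 0.0583 and 0.0292 FPKM. Col10a1, the marker of hypertrophic cartilage, read 0.01002 and 0.0125 FPKM. Col5a3, Col6a4, Col6a5, Col6a6, Col17a1, Col19a1 and Col28a1 were also under 0.1 FPKM in both genotypes. Outside the rule stood 2 tested entries, neither of which changed. An entry that joins Col7a1, of anchoring fibrils, with Mir711 read 0.538 and 0.523 FPKM (log2 -0.04), and an entry with no matched symbol on chromosome 9 from 79598991 to 79718678, inside the RefSeq position of Col12a1, read 2.48 and 2.44 FPKM (log2 -0.02).

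Some collagen genes share a chromosome with the targeted loci. The chromosome 4 members Col16a1, Col8a2, Col9a2, Col27a1 and Col15a1 lie 18.7, 22.5, 27.7, 85.5 and 101 Mb from Casz1, and Col11a2 lies 7.20 Mb from Nkx2-5 on chromosome 17. None of these 6 genes changed.

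Genes whose products make, bind or break down collagen were examined beside the collagens themselves. Of 61 such genes, 53 were tested, and 0 rose and 0 fell in the authors' Cuffdiff test, with 1 at an unadjusted p under 0.05. Over all tested entries 0.422% changed and 3.17% had such a p, so 0 among 53 is close to the share of all entries. Their median log2 fold change was -0.04, and 22 of 53 lay above 0. In the list of synthesis and folding 0 of 18 tested genes changed (median -0.04). Serpinh1, the collagen chaperone HSP47, read 546 and 531 FPKM, and Ppib, a proline isomerase of the same compartment, read 295 and 303 FPKM. In the list of secreted processing and cross-linking 0 of 11 changed (median 0.07). The procollagen C-proteinase enhancer Pcolce read 59.9 and 62.8 FPKM and the lysyl oxidase Loxl2 read 45.1 and 46.6 FPKM.

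The remaining lists gave the same count. Of 9 tested matrix proteins that bind fibrils 0 changed (median -0.19), with Sparc at 372 and 376 FPKM and fibronectin Fn1 at 208 and 205 FPKM, while periostin Postn read 24.5 and 16.2 FPKM (log2 -0.60, q = 1.00 in the authors' deposited table). Of 8 tested collagen receptors 0 changed (median -0.05). The integrin chain Itgb1 read 149 and 134 FPKM, the discoidin receptor Ddr1 read 70.7 and 65.1 FPKM, and the platelet receptor Gp6 read 0.455 and 0.210 FPKM (log2 -1.11, SE 0.606). Of 7 tested turnover genes 0 changed (median -0.03). Mmp14 and Mmp2, proteases of the cell surface and the matrix, read 46.5 and 50.7 FPKM and 26.9 and 27.6 FPKM. Mmp9 was the gene with an unadjusted p under 0.05 (p = 0.0390, q = 1.00 in the authors' deposited Cuffdiff table), at 0.0421 and 0.118 FPKM (log2 1.49, SE 0.721).

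**Figure D5:**
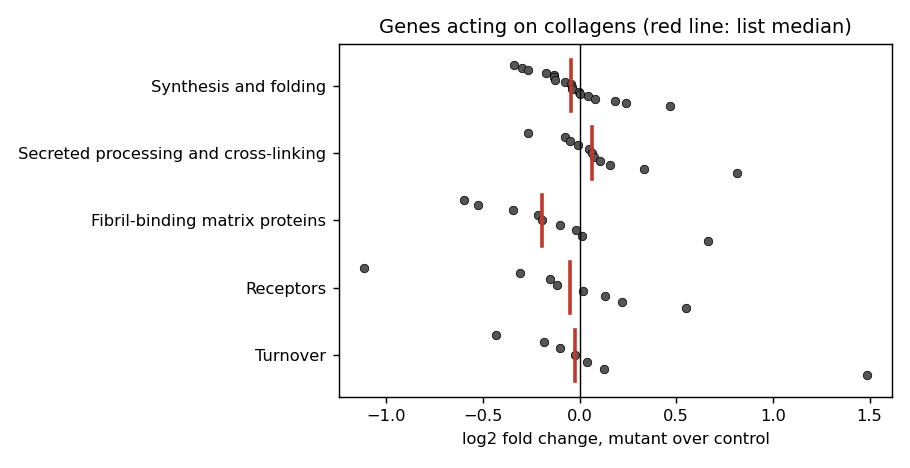
Log2 fold change, mutant over control, of 53 tested genes that act on collagens, 1 point per gene in 5 lists, with the list median as a red line. The medians lie between -0.19 and 0.07, and the outermost points are Mmp9 (1.49) and Gp6 (-1.11).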

How the data were processed

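RNA-seq libraries from 3 control and 3 mutant hearts were processed by the authors. Per the submitters' processing notes the build was mm10 and the tools were Cuffdiff, Cufflinks 2.1.1, TopHat2 2.0.8, SAMtools 0.1.19.0, FastQC 0.10.1 and Bowtie2 2.1.0.0. The deposited FPKM values, 1 for each gene in each genotype, pool the replicates, per the file headers, and log2 fold changes (mutant over control), test statistics (a signed score in the authors' table) and p-values and q-values were deposited beside them. The sources used here do not state the authors' normalisation settings. Because FPKM keeps no read counts, the depth is unknown and intervals for counting error were not computed. The labels describe biological replicates from individually harvested hearts.

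The deposited q with a threshold of 0.05 was used as the test, and no new model was fitted. The SE was taken as the fold change divided by the test statistic, since p matched its normal tail within 1e-05 in each of the 15301 entries tested with a finite fold. Symbols came from a RefSeq table of the same assembly for 22999 entries and from GENCODE for 126, 99.29% in all. No collagen gene had more than 1 row. Start positions count from 1. Overlapping genes may share reads. The collagen members, the pathway and marker lists and the rule for named genes were chosen with earlier results of these data known. Under that rule called genes, genes with an unadjusted p under 0.05, and the 2 highest and 2 most changed genes (at least 1 FPKM) of each class are given in detail, and further genes were named after their values were seen. The calculations were tested on simulated data. Python 3.11.15, numpy 2.4.6, pandas 2.3.3, scipy 1.17.1 and matplotlib 3.10.9 were used.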

Additional observations from a re-analysis of the deposited data

How the results depend on the processing

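The count of 1 collagen gene higher and 0 lower in the authors' Cuffdiff test (2 at an unadjusted p under 0.05) was the same at q thresholds of 0.01 and 0.1, with the adjustment recomputed over entries of at least 1 FPKM, under both filters on low FPKM, and with the 2 entries outside the rule, an alternative chosen after seeing the data. The number with an unadjusted p under 0.05 was 1 with at least 1 FPKM in either genotype and 1 with at least 1 FPKM in both, since Col15a1 drops out. Taking the lowest row per gene could not alter a value, since no collagen gene had more than 1 row. The q thresholds and FPKM filters had little room to alter the count. The q was 0.000699 for Col22a1, above 1 FPKM in both genotypes, and at least 0.999 for the other collagen genes. The median log2 fold change ran from -0.03 to 0.01 over its alternatives, and centring on the median of all tested entries with at least 1 FPKM (-0.02) moved it and Col1a1 from -0.01 to 0.01. Of 93 alternatives for single genes 90 stayed within 1 SE, and the other 3 came with a pseudocount of 1 FPKM: Col14a1 (-0.20), Col15a1 (0.37) and Col22a1 (1.12). That pseudocount also shrank, within 1 SE but by over 1.5 times on the log2 scale, Col25a1 (0.16), Col8a1 (0.32), Col20a1 (-0.03), Col11a2 (0.06), Col6a3 (0.03), Col27a1 (0.03) and Col8a2 (-0.12). The pathway count was 0 at q thresholds of 0.01 and 0.1. No paired analysis was possible because the table holds 1 pooled value per genotype, and for the same reason the replicate block and leaving out each replicate were not run. Genes under 1 FPKM had the widest intervals, and small changes could not be detected in them. The same holds for more abundant collagen genes. Their lowest SE was 0.285 (Col26a1), and the smallest change called among all entries was 2.29-fold.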
